A study of Canis lupus familiaris with 22 samples.

Results

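The chemokines *CCL17* and *CCL22* and the chemokine receptors *CCR4*, *CCR10*, *CCR1*, *CCR2*, *CCR6*, *CCR7* and *CXCR3* steer lymphocytes and monocytes between blood, skin and lymph nodes. These 9 genes were taken by their gene symbol from the 34382 different gene names of a canine Agilent array, on which each of them has 1 probe of the 43603. Blood RNA came from 8 healthy blood donors (ctrl) and from 7 cAD patients, who were sampled ahead of ASIT (0) and again when it had run for 6 months, and was hybridized to 22 arrays, 1 array per sample. All dogs were adults of various breeds, females and males in each group. The cAD patients were privately owned and had positive serological and intradermal allergy tests. ASIT was given as subcutaneous allergen extracts chosen for each dog by the intradermal test. The RNA of the dog carried Cy5, and every array shared 1 Cy3-labeled reference, a pool from 13 healthy dogs outside the 3 groups. The labels name the material whole blood, whereas the methods speak of peripheral blood nuclear cells, and no group holds skin.

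CCL17 (TARC) and CCL22 (MDC) are made mainly by dendritic cells, macrophages and keratinocytes, and both bind CCR4, the receptor of Th2 cells and of memory T cells that home to skin. CCR10 answers to the keratinocyte chemokine CCL27 and to CCL28, and completes the skin-homing pair of receptors. Of the others, CCR7 leads naive T cells and dendritic cells to lymph nodes, CCR6 is the receptor of CCL20 on Th17 cells and B cells, CXCR3 marks Th1 and cytotoxic cells, CCR2 is the CCL2 receptor of monocytes, and CCR1 binds CCL3 and CCL5. In blood the receptors are carried by the circulating cells themselves, whereas the ligands act largely in tissue.

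What each spot measured is set by its 60-base probe. The probes of *CCL22*, of the skin-homing receptors and of *CCR6* and *CXCR3* are therefore printed 5′ to 3′ from the scanner files. *CCR6* and *CXCR3* were the 2 receptors with the widest differences from ctrl by the ratios as measured. Between the times before and after ASIT, *CCR2* and *CCR7* differed more than either. Capitals in the *CXCR3* probe mark CCTGGG, to which the values of that gene return.

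CCL22: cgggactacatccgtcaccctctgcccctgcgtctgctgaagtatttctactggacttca

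CCR4: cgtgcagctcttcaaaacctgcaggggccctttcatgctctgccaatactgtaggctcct

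CCR10: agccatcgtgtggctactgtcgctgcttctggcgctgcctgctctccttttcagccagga

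CCR6: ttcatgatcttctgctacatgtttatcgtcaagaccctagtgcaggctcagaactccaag

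CXCR3: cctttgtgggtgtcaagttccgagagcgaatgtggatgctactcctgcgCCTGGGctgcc

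On canFam3.1, the build of the file headers, the *CCL22* probe lay at chr2:59044032-59044091 (minus strand), on the same chromosome as that of *CCL17* at chr2:59001464-59001523 (minus strand). The *CCR4* probe lay at chr23:3844252-3844311 (minus strand), that of *CCR10* at chr9:20309858-20309917 (plus strand), that of *CCR6* at chr1:54958722-54958781 (plus strand) and that of *CXCR3* at chrX:55882525-55882584 (minus strand). The *CCR1* and *CCR2* probes shared chromosome 20, at chr20:42425584-42425643 (plus strand) and chr20:42307795-42307854 (minus strand), and the *CCR7* probe lay at chr9:22088899-22088958 (plus strand). No exon annotation of this build was used. The longest stretch of bases that any of the 9 probes shared with the probe of another chemokine or chemokine receptor was 11, between *CCR7* and *CXCR2*. The file describes the transcript of the *CCR2* probe as an uncharacterized protein, and its identity rests on the symbol alone.

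Values are log2 ratios of Cy5 to Cy3, so that 0 means the signal of the reference pool, and they order the dogs for 1 probe but not the genes among themselves. The ctrl arrays occupied 2 slides and 1 scan day that held no cAD array, so disease and slide or scan cannot be told apart in either comparison with ctrl. Dogs 4 to 7 after ASIT shared 1 slide and scan day with no array before ASIT, so for 4 of the 7 pairs time and slide cannot be told apart either. Over all tested probes, the arrays before ASIT of dogs 3, 5 and 6 correlated best with another dog's array after ASIT. This limits what changes within these dogs can show. The arrays also differed in how many probes had Cy5 signal above background, a median of 87.8% on ctrl arrays, 62.5% before and 61.6% after ASIT, and its part in the results was not tested. Fewer cells of a type and less RNA per cell cannot be told apart in such samples. The groups were compared by limma in 1 fit with Benjamini-Hochberg adjustment over 38286 probes, all 9 genes among them. Beside it stand 2-sided exact permutation tests, unadjusted, whose smallest possible p was 0.000155 for 8 against 7 dogs, and exact sign-flip tests within the 7 dogs, with a smallest p of 0.0156.

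None of the 9 genes passed the adjusted threshold of 0.05 in any comparison by the ratios as measured. In 0 vs. ctrl, 0 of 9 were called, against 0.0418% of all tested probes. At an unadjusted limma p under 0.05, *CCL17* and *CCL22* were lower in cAD patients, 2 of 9 genes against 7.93% of all probes, and *CCR6* was higher, 1 of 9 against 3.81%, together 3 of 9 against 11.7%. In 6 months vs. ctrl, 0 of 9 genes and 0% of all probes were called, and 1 gene, *CCR6*, had an unadjusted p under 0.05 and was higher, against 7.2% of probes with such a p, 4.09% higher and 3.11% lower. In 0 vs. 6 months, 0 of 9 genes and 0% of all probes were called, and none of the 9 had an unadjusted p under 0.05, which 5.96% of probes had, 2.15% with the higher value before ASIT and 3.81% with the lower. For the 3 comparisons in this order, the median difference of the 9 genes was 0.14, 0.19 and -0.11, beside -0.02, -0.04 and -0.01 over all tested probes. With the Cy5 channel alone, which leaves the reference out, 3994 of 38286 probes were called in 0 vs. ctrl and 1452 in 6 months vs. ctrl. The calls of single genes with that channel, given below, stand beside these counts.

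**Figure D1:**
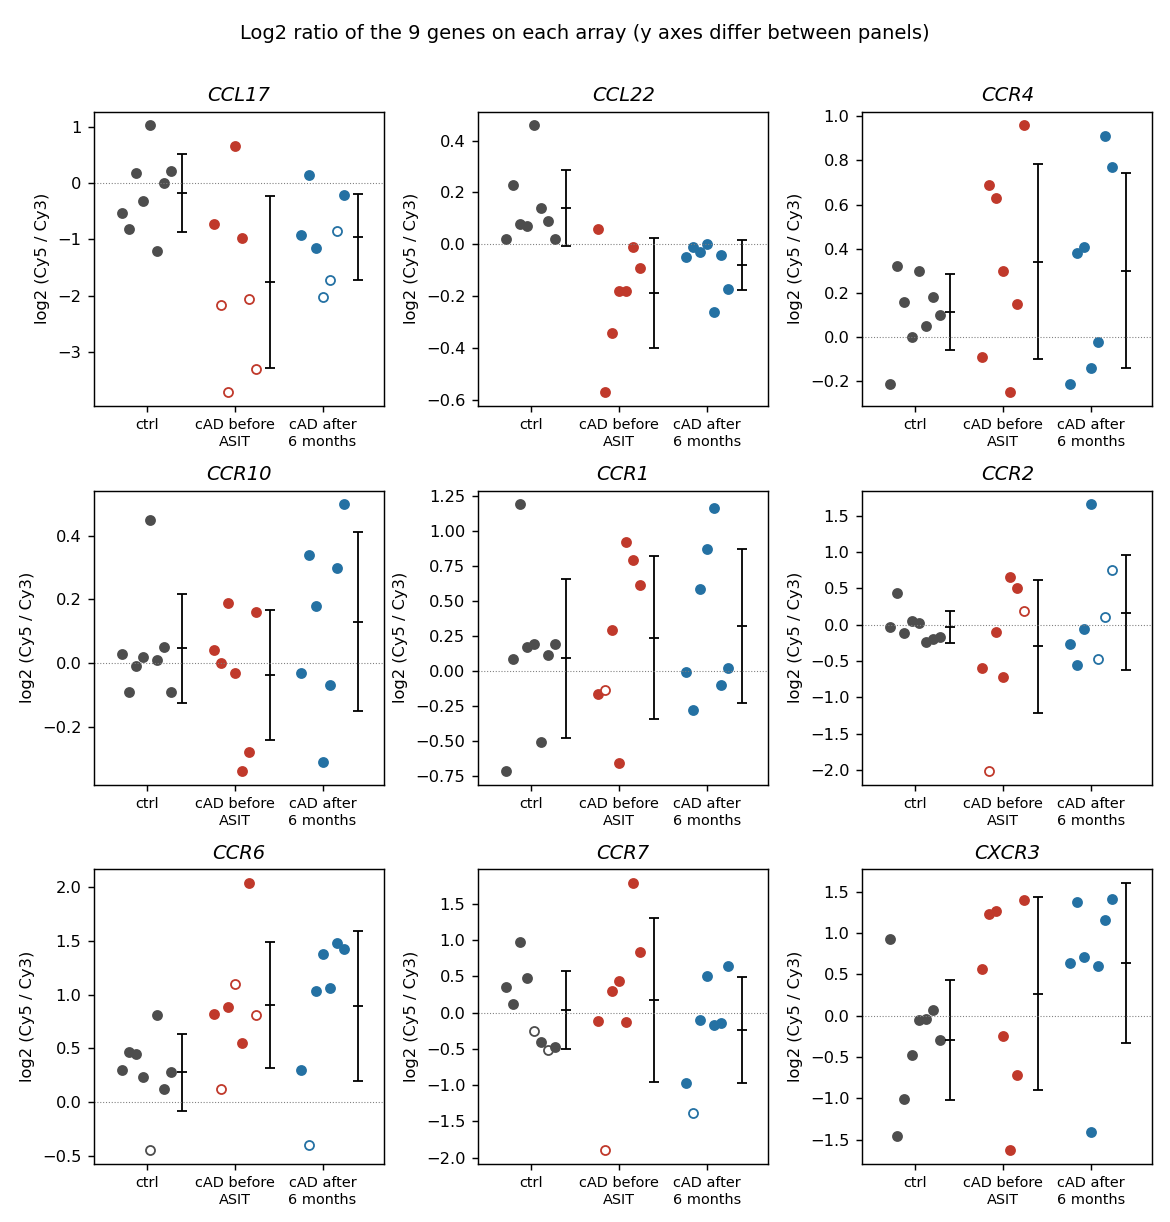
Log2 ratio of Cy5 (dog) to Cy3 (reference pool) of the 9 genes on each array, by group (ctrl n = 8, before ASIT n = 7, after 6 months n = 7), with dogs in number order, open points where Cy5 was not well above background, and the mean ± SD in black. All 7 values of *CCL22* after ASIT lie below all 8 ctrl values, whereas the groups of the other 8 genes overlap, and the open points gather in *CCL17*, *CCR2*, *CCR6* and *CCR7*.

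The ligand *CCL17* had the widest difference of the 9 genes in 0 vs. ctrl by the ratios as measured, though not with normexp background correction and loess normalization, where *CXCR3* (0.51) and *CCL22* (-0.32) exceeded it, nor with the Cy5 channel alone, where *CCL22* (-0.70), *CCR7* (0.50) and *CCR10* (-0.48) did. Its log2 ratio in ctrl ran from -1.2 to 1.03 with a median of -0.16. Before ASIT it ran from -3.72 to 0.65 with a median of -2.06, and after ASIT from -2.02 to 0.15 with a median of -0.92. The groups overlapped, since dog 4 before ASIT at 0.65 was above 7 of the 8 healthy dogs, whereas 4 of the 7 cAD patients before ASIT were below every one of them. The mean was -0.18 ± 0.69 (SD, n = 8) in ctrl, -1.76 ± 1.53 (n = 7) before and -0.97 ± 0.77 (n = 7) after ASIT. The difference in 0 vs. ctrl was -1.57 ± 0.50 (SE), with a limma adjusted p of 0.197 and an exact permutation p of 0.0219. In 6 months vs. ctrl it was -0.78 ± 0.50, with an adjusted p of 0.704 and an exact p of 0.0605.

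These low values of *CCL17* were those of a dim probe. Cy5 stood well above background in 8 of 8 healthy dogs, in 3 of 7 patients before and in 4 of 7 after ASIT, and the 4 lowest values before ASIT all stood on arrays where it was not. The median processed Cy5 intensity was 149 in ctrl, 20 before and 30.3 after ASIT. With normexp background correction and loess normalization together, the group means were -0.06 ± 0.26, -0.19 ± 0.24 and -0.10 ± 0.10, a difference of -0.13 in 0 vs. ctrl. With the Cy5 channel alone the differences of *CCL17* were -0.30 (limma adjusted p = 0.0954) before and -0.13 (adjusted p = 0.481) after ASIT against ctrl. From 0 to 6 months *CCL17* did not move 1 way. It was higher before ASIT in 3 of 7 dogs, with differences, before minus after, between -3.09 and 2.67 (0 vs. 6 months -0.79 ± 0.52, adjusted p = 0.932, exact sign-flip p = 0.359).

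*CCL22*, the other ligand of CCR4, differed less in size but more evenly. Its probe was well above background in both channels on all 22 arrays, with a median Cy5 intensity of 23900 in ctrl, 17800 before and 28400 after ASIT. The log2 ratio in ctrl ran from 0.02 to 0.46 with a median of 0.09. Before ASIT it ran from -0.57 to 0.06 with a median of -0.18, and after ASIT from -0.26 to 0 with a median of -0.04. All 8 healthy dogs thus lay above the reference pool, while before ASIT 6 of 7 patients lay below it and dog 1, at 0.06, overlapped with ctrl. After ASIT the groups did not overlap, which was so for 1 of the 9 genes and for 0.11% of all tested probes in 6 months vs. ctrl, but the gap was narrow, from 0 in dog 4 to 0.02 in 2 healthy dogs. With normexp background correction and loess normalization the groups overlapped, as dog 2 after ASIT, at 0.06, was above the lowest healthy dog, at 0.01. No gene of the 9 was free of overlap in 0 vs. ctrl, against 0.217% of all probes, or in 0 vs. 6 months, against 0.0183%.

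The mean of *CCL22* was 0.14 ± 0.15 (SD, n = 8) in ctrl, -0.19 ± 0.21 (n = 7) before and -0.08 ± 0.10 (n = 7) after ASIT. In 0 vs. ctrl the difference was -0.33 ± 0.12 (SE), or 1.26-fold, with a limma adjusted p of 0.242 and an exact permutation p of 0.000777. In 6 months vs. ctrl it was -0.22 ± 0.12, or 1.17-fold, with an adjusted p of 0.681 and an exact p of 0.000466. With normexp background correction and loess normalization the differences were -0.32 in 0 vs. ctrl and -0.36 in 6 months vs. ctrl. Within dogs, 4 of 7 had the higher ratio before ASIT, and the largest change was that of dog 2, from -0.57 to -0.01 (0 vs. 6 months -0.11 ± 0.12, adjusted p = 0.934, exact sign-flip p = 0.359). This last difference was 0.03 with normexp background correction and loess normalization, -0.60 with the Cy5 channel alone (limma adjusted p = 0.307) and -0.25 in dogs 1 to 3, whose paired arrays share slides. With the Cy5 channel alone *CCL22* was lower in 0 vs. ctrl by -0.70 (limma adjusted p = 0.0227) and differed by -0.10 after ASIT (adjusted p = 0.713).

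*CCR4*, the receptor of both ligands, was measured well above background in both channels on all 22 arrays. Its log2 ratio ran from -0.21 to 0.32 (median 0.13) in ctrl, from -0.25 to 0.96 (median 0.30) before and from -0.21 to 0.91 (median 0.38) after ASIT. The lower ends nearly coincided and the upper ends did not, and all 8 healthy dogs lay within the range of the patients before ASIT. The SD was 0.17 in ctrl and 0.44 before and after ASIT, but 0.10, 0.10 and 0.07 with normexp background correction and loess normalization, the probe being dim at Cy5 intensities of 101 to 261. Means of 0.34 before and 0.30 after ASIT stood against 0.11 in ctrl, with differences of 0.23 ± 0.19 (SE, adjusted p = 0.704, exact permutation p = 0.197) and 0.19 ± 0.19 (adjusted p = 0.833, exact p = 0.293). These turned to -0.01 and -0.03 with normexp background correction and loess normalization, while with the Cy5 channel alone *CCR4* was higher at both times, by 0.30 (limma adjusted p = 0.0325) and 0.36 (adjusted p = 0.0266). Before and after ASIT, dog 7 was at 0.96 and 0.77, dog 2 at 0.69 and 0.38 and dog 3 at 0.63 and 0.41. Dog 6 went from 0.15 to 0.91, the highest after ASIT. With normexp background correction and loess normalization, dog 7 was at 0.20 and 0.02 and dog 3 at 0.20 and 0.10. In that setting dog 2 was at 0.03 and 0.16, the highest after ASIT. Between 0 and 6 months *CCR4* differed by 0.04 ± 0.20 (adjusted p = 0.977, exact sign-flip p = 0.844).

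*CCR10*, the receptor of CCL27 and CCL28, had small differences from ctrl by the ratios as measured. Its probe too was above background in both channels on all 22 arrays. It ran from -0.09 to 0.45 (median 0.02) in ctrl, from -0.34 to 0.19 (median 0) before and from -0.31 to 0.50 (median 0.18) after ASIT. Without ctrl dog 5, at 0.45, the healthy dogs spanned only -0.09 to 0.05, and the cAD patients lay on both sides of them. The differences were -0.08 ± 0.14 (SE) in 0 vs. ctrl (adjusted p = 0.862, exact permutation p = 0.401), 0.08 ± 0.14 in 6 months vs. ctrl (adjusted p = 0.906, exact p = 0.49) and -0.17 ± 0.14 in 0 vs. 6 months (adjusted p = 0.934, exact sign-flip p = 0.25). With the Cy5 channel alone it was lower in 0 vs. ctrl by -0.48 (limma adjusted p = 0.0384) and differed by -0.38 after ASIT (adjusted p = 0.0905). Leaving out 1 array, the difference in 0 vs. ctrl ran from -0.12 (without dog 3 before ASIT) to -0.03 (without ctrl dog 5), and that after ASIT from 0.02 (without dog 7) to 0.15 (without dog 4).

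Of the receptors outside the skin-homing pair, *CCR6* was the one with an unadjusted limma p under 0.05 against ctrl, at both times. Its log2 ratio ran from -0.45 to 0.81 (median 0.29) in ctrl, from 0.12 to 2.04 (median 0.82) before and from -0.40 to 1.48 (median 1.06) after ASIT. Dog 6 was the highest at both times with 2.04 and 1.48, and dog 2 the lowest with 0.12 and -0.40, within the ctrl range. The difference was 0.62 ± 0.28 (SE) in 0 vs. ctrl (adjusted p = 0.365, exact permutation p = 0.0159) and 0.62 ± 0.28 in 6 months vs. ctrl (adjusted p = 0.681, exact p = 0.0482). Between 0 and 6 months it was 0 ± 0.29 (adjusted p = 0.998, exact sign-flip p = 1), with differences in single dogs, before minus after, between -0.61 and 0.56.

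The *CCR6* ratios had a dim denominator. For this probe Cy3, the reference pool, exceeded background clearly on 3 of 8 arrays of healthy dogs and on 0 of 7 before and 0 of 7 after ASIT, and Cy5 on 7 of 8, 4 of 7 and 6 of 7. The median Cy5 intensity of the dogs was 65.7 in ctrl, 50.6 before and 52.2 after ASIT, on arrays of unequal brightness. With the Cy5 channel alone, normalized between arrays, *CCR6* was higher by 0.25 in 0 vs. ctrl (limma adjusted p = 0.0448) and differed by 0.24 after ASIT (adjusted p = 0.0638). With normexp background correction and loess normalization the differences against ctrl were 0.04 and -0.03.

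*CXCR3*, the receptor of Th1 cells, had a bright probe and, with an SD of 0.72 in ctrl, 1.16 before and 0.97 after ASIT, the widest spread of the 4 genes measured above background in both channels on all arrays. It ran from -1.46 to 0.93 (median -0.18) in ctrl, from -1.63 to 1.4 (median 0.57) before and from -1.41 to 1.41 (median 0.71) after ASIT. Dogs 5 and 6 were low before ASIT at -1.63 and -0.72 and high after it at 0.60 and 1.16, whereas dog 4 went from -0.25 to -1.41. Its difference in 6 months vs. ctrl was 0.93 ± 0.46 (SE, 1.91-fold, adjusted p = 0.681, exact permutation p = 0.0552), in 0 vs. ctrl 0.56 ± 0.46 (adjusted p = 0.689, exact p = 0.27) and in 0 vs. 6 months -0.37 ± 0.47 (adjusted p = 0.934, exact sign-flip p = 0.391). With the Cy5 channel alone the 3 values were 0.30, -0.03 and -0.33 (limma adjusted p of 0.668 or more). The ratio's value in 0 vs. 6 months was -0.06 without dog 5 before ASIT, -0.71 without dog 4 after ASIT and 0.12 in dogs 1 to 3, whose paired arrays share slides.

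Many other probes carried the *CXCR3* values. Over the 15 arrays of ctrl and before ASIT, 1 per dog, with each group's mean removed, 790 of the 19945 other probes above background in both channels on all arrays (3.96%) correlated with *CXCR3* at r of at least 0.95, and 134 at r of at least 0.99. For *CCL22* these counts were 2 and 0, and for *CCR4* and *CCR10* 0 and 0. The named genes with the highest r were *MBP* (myelin basic protein), *MYOCD* (myocardin, a factor of heart and smooth muscle) and *ITPRIPL1*, each at r = 0.998. Array by array, the median of the 790 probes had the sign of *CXCR3* on 19 of 22 arrays and stayed within 0.63 of it. On the 7 arrays after ASIT, which had no part in the choice of the 790, *CXCR3* and this median correlated at r = 0.994.

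The differences of the 790 probes were also near those of *CXCR3*, with medians of 0.38 and 0.71 against ctrl, before and after ASIT, and -0.33 between the times. The probes were richer in G and C than most, with a median of 55% against 43.3% of the probes they were drawn from, and the *CXCR3* probe held 60%. Of the 6-base words in the *CXCR3* probe, CCTGGG exceeded its background share by the most percentage points, though rarer words exceeded theirs by a larger factor, being read on the printed strand in 13.5% of the 790 probes and in 3.05% of those they were drawn from. The limit of 0.95 and the word were chosen after the values were seen, these counts are descriptions, and whether the *CXCR3* probe read *CXCR3* RNA alone was not tested.

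**Figure D2:**
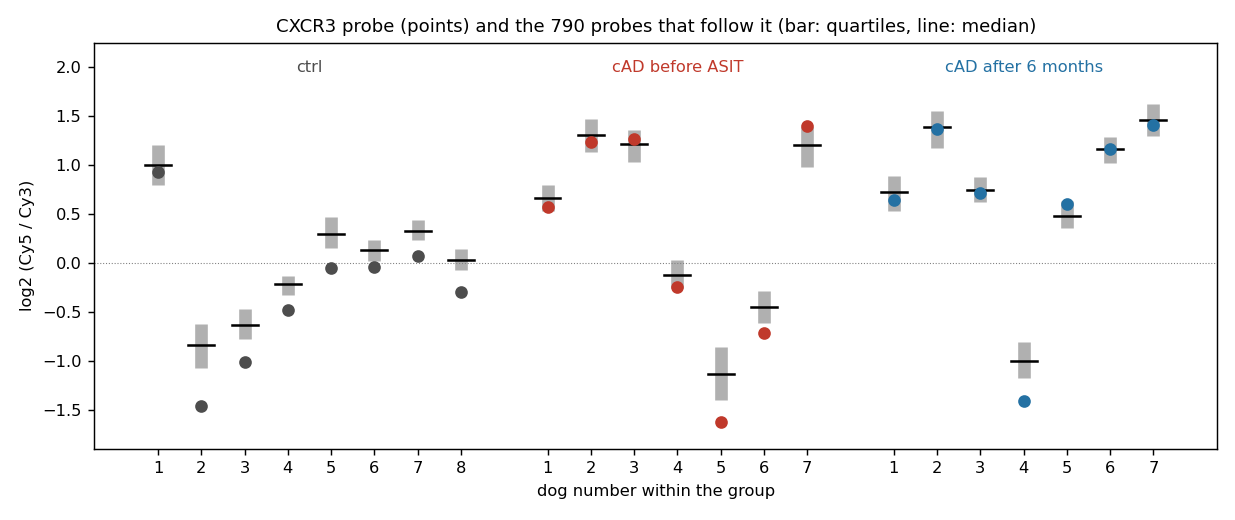
Log2 ratio of the *CXCR3* probe (points) on each of the 22 arrays, in dog order within ctrl, before ASIT and after 6 months, with the median (black line) and the quartiles (grey bar) of the 790 probes whose ratios followed it over the ctrl and before ASIT arrays. The median of the 790 stays within 0.63 of *CXCR3* on every array, also after ASIT.

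*CCR7*, the lymph node homing receptor, had the higher ratio before ASIT in 5 of 7 dogs, without passing a test by the ratios as measured. It ran from -0.51 to 0.98 (median -0.06) in ctrl, from -1.9 to 1.79 (median 0.30) before and from -1.39 to 0.64 (median -0.15) after ASIT. Dog 2 was the lowest at both times at -1.9 and -1.39. The ctrl values fell apart by slide, from 0.12 to 0.98 on 1 slide and from -0.51 to -0.25 on the other, so healthy dogs on the 2 slides did not overlap. The difference was 0.41 ± 0.41 (SE) in 0 vs. 6 months (adjusted p = 0.934, exact sign-flip p = 0.234), and it was 0.14 without dog 6 before ASIT and 0.75 without dog 2 before ASIT. It was 0.14 ± 0.39 in 0 vs. ctrl (adjusted p = 0.926, exact permutation p = 0.767) and -0.27 ± 0.39 in 6 months vs. ctrl (adjusted p = 0.89, exact p = 0.424). Its Cy5 signal passed background on 6 of 8 arrays of healthy dogs, 6 of 7 before and 6 of 7 after ASIT, and Cy3 on 3 of 8, 7 of 7 and 5 of 7. With the Cy5 channel alone *CCR7* was higher in 0 vs. ctrl by 0.50 (limma adjusted p = 0.0185) and differed by 0.27 after ASIT (adjusted p = 0.12), and with normexp background correction and loess normalization these differences were 0.12 and -0.06.

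The monocyte receptors *CCR2* and *CCR1* passed no test. *CCR2* ran from -0.24 to 0.44 (median -0.08) in ctrl, from -2.02 to 0.65 (median -0.10) before and from -0.56 to 1.66 (median -0.06) after ASIT, so the medians nearly coincided and the extremes were dog 2 before and dog 4 after ASIT. Its differences were -0.27 ± 0.34 (SE, exact permutation p = 0.494), 0.20 ± 0.34 (exact p = 0.569) and, in 0 vs. 6 months, -0.47 ± 0.35 (exact sign-flip p = 0.359), and Cy5 was well above background on 5 of 7 arrays before and 4 of 7 after ASIT. With normexp background correction and loess normalization these differences of *CCR2* were -0.01, 0.01 and -0.02, and with the Cy5 channel alone 0.08, 0.04 and 0.03. *CCR1* ran from -0.72 to 1.19 (median 0.14) in ctrl, from -0.66 to 0.92 (median 0.29) before and from -0.28 to 1.16 (median 0.02) after ASIT. Its differences were 0.15 ± 0.28 (exact permutation p = 0.624), 0.23 ± 0.28 (exact p = 0.43) and -0.09 ± 0.29 (exact sign-flip p = 0.781). Leaving out 1 array, the first of these ran from 0.03 (without ctrl dog 1) to 0.30 (without ctrl dog 3) and the second from 0.09 (without dog 5 after ASIT) to 0.39 (without ctrl dog 3). Against ctrl *CCR1* differed by 0.06 and 0.07 with normexp background correction and loess normalization and by 0.27 at both times with the Cy5 channel alone (limma adjusted p = 0.0566 and 0.069). By the ratios as measured, the limma adjusted p of these 2 genes was 0.811 or more in every comparison.

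**Figure D3:**
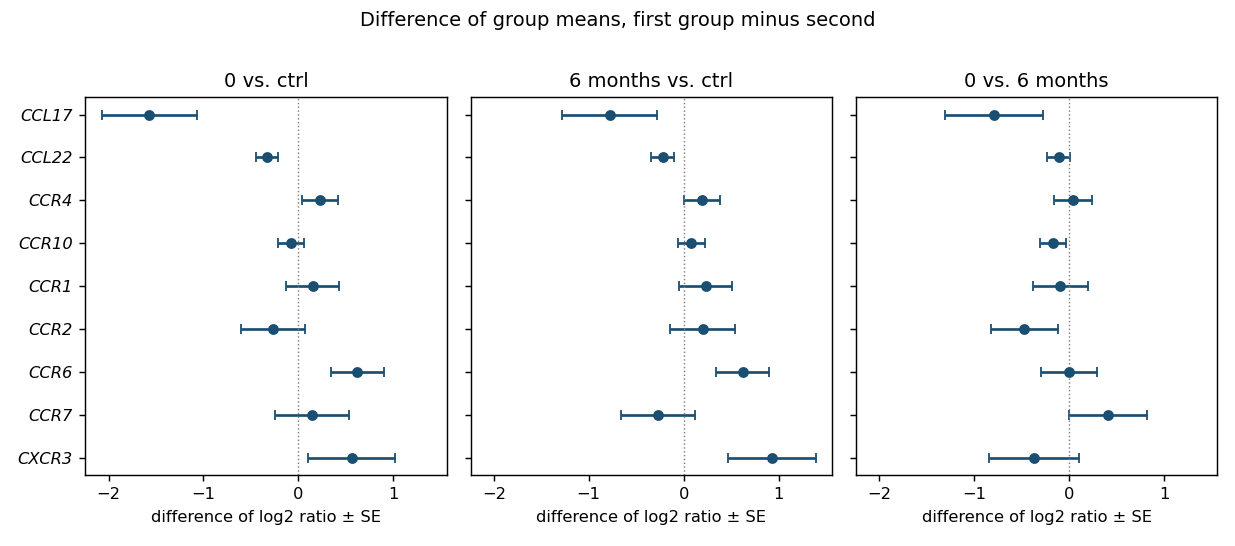
Difference of the mean log2 ratio ± SE from limma for the 9 genes in 0 vs. ctrl, 6 months vs. ctrl and 0 vs. 6 months, first group minus second. *CCL17* (-1.57) lies farthest from 0 in 0 vs. ctrl and *CXCR3* (0.93) in 6 months vs. ctrl by the ratios as measured, and no gene had an adjusted p under 0.05.

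The skin-homing pair was set against the other receptors on each array as the mean log2 ratio of *CCR4* and *CCR10* minus the mean of *CCR1*, *CCR2*, *CCR6*, *CCR7* and *CXCR3*. The difference was 0.07 ± 0.24 (SD, n = 8) in ctrl, -0.10 ± 0.55 (n = 7) before and -0.14 ± 0.45 (n = 7) after ASIT. Without *CCR10* the means were 0.10, 0.09 and -0.06, nearly equal in ctrl and before ASIT. With normexp background correction and loess normalization they were 0.11 ± 0.15, -0.08 ± 0.13 and -0.04 ± 0.08, with 1 of 8 healthy dogs and 5 of 7 patients at each time below 0. As measured, it ran from -0.26 to 0.48 in ctrl, before ASIT from -0.95 to 0.89 and after ASIT from -0.82 to 0.61, so the groups overlapped over most of their range. It was below 0 in 3 of 8 healthy dogs and in 5 of 7 patients at each time. Dog 2 was the highest patient at both times, at 0.89 and 0.61, and the largest change was that of dog 6, from -0.95 to 0.11. As the score was built over the chosen genes, it was given no test, and *CXCR3* and *CCR6*, with the limits given above, are among its 5 other receptors.

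**Figure D4:**
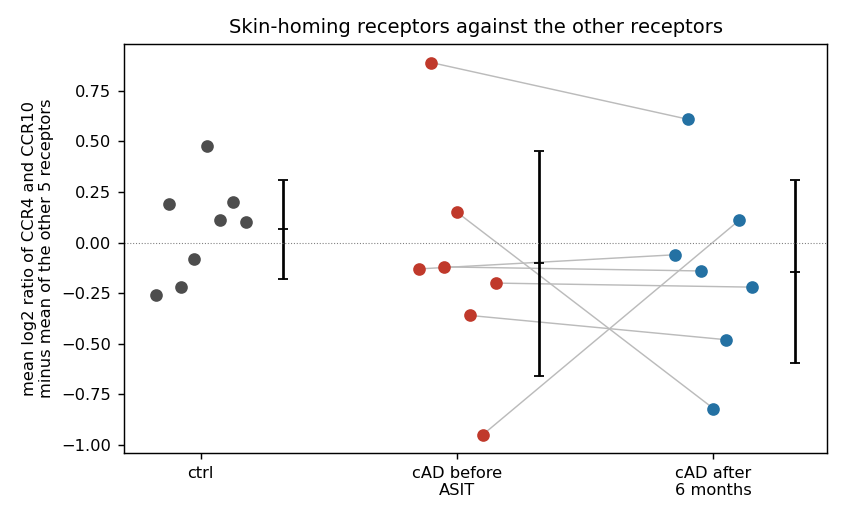
Mean log2 ratio of *CCR4* and *CCR10* minus that of the other 5 receptors on each array, by group, with the mean ± SD in black and grey lines joining the 2 arrays of a cAD patient. The means are 0.07 in ctrl, -0.10 before and -0.14 after ASIT, and the ranges overlap.

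Among the 4 probes above background on all arrays, those of *CCR10* and *CXCR3* had the highest correlation from dog to dog. Over 15 dogs with group means removed, Pearson's r was 0.69 (permutation p = 0.00418, adjusted over 6 pairs 0.0251) and Spearman's rho 0.725 (permutation p = 0.00303, adjusted 0.0182). Without the 2 dogs farthest from the median r was 0.751, with slide means removed 0.637, and within groups 0.318 in ctrl, 0.932 before and 0.884 after ASIT, while single slides held too few dogs for a value of their own. The *CCR10* probe correlated at r = 0.698 with the median of the 790 probes that follow *CXCR3*. These were chosen to follow *CXCR3* over the same 15 dogs, so a value near 0.69 was fixed in advance. Whether *CCR10* goes with *CXCR3* in particular was not tested. *CCR4* and *CCR10*, the skin-homing pair, reached r = 0.574 (permutation p = 0.0253, adjusted 0.0759) and rho = 0.514 (permutation p = 0.0515, adjusted 0.154), and r was 0.335 without the 2 farthest dogs. *CCR4* and its ligand *CCL22* had r = -0.183 (permutation p = 0.517) and rho = -0.186 (permutation p = 0.507), with 0.682 in ctrl and -0.466 before ASIT.

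Genes outside the family that followed the other bright probes over the 15 dogs were, for *CCL22*, *ALDH3A1* (r = 0.955), *CYP2C18* (0.91) and *ABHD15* (0.907), with 0.732, 0.769 and 0.784 over the 7 arrays after ASIT. For *CCR10* they were *OTOP3* (0.919), *LAMB2* (0.916) and *CHPF* (0.914), with 0.962, 0.979 and 0.779 after ASIT. For *CCR4* they were *GAL* (0.918), *KLHL41* (0.884) and *P2RY2* (0.86), with 0.511, 0.897 and 0.767 after ASIT. The file describes the transcript of the *CHPF* probe as obscurin-like 1, that of *P2RY2* as an uncharacterized protein and that of *MYOCD* as a partial match to myocardin, so these names rest on the symbol. The genes named for each receptor or ligand are the 3 highest of 12089 probes with a gene symbol, which share arrays and normalization with the 9 genes.

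None of the other tested genes of chemokine signaling and homing was called in any comparison. In these lists and those of the cell markers, some genes have several probes, such as *CXCR4* with 2. Such a gene was read by its probe with the highest mean Cy5 signal, and its other probes are not given. Of 18 ligands of these receptors, 14 were tested. In 0 vs. ctrl, 2 of them had an unadjusted p under 0.05, both lower (7.93% of all probes were lower and 3.81% higher at such a p), the CCR10 ligand *CCL28* by -0.96 ± 0.36 (SE, limma adjusted p = 0.259) and *CCL14* by -0.70 ± 0.30 (adjusted p = 0.345), where Cy5 of *CCL28* was above background on 12 of 22 arrays. *CCL27*, the keratinocyte ligand of CCR10, differed by -0.11 ± 0.16. Of 13 other chemokine receptors tested, *CXCR4*, which holds cells in bone marrow and answers to CXCL12, had the lowest p of these lists and was higher by 0.75 ± 0.22 in 0 vs. ctrl (adjusted p = 0.176). Of 13 adhesion and exit genes tested, *VCAM1*, an endothelial adhesion molecule, was the 1 with such a p in 0 vs. ctrl (-0.63 ± 0.30, adjusted p = 0.408), with Cy5 above background on 12 of 22 arrays, and *ITGAL*, the LFA-1 subunit of leukocyte arrest, had the lowest p in 6 months vs. ctrl (-0.47 ± 0.21, adjusted p = 0.681), and *CCL3*, a CCR1 ligand, had the lowest in 0 vs. 6 months (0.84 ± 0.35, adjusted p = 0.711). *ITGAL* and *CCL3* were each the 1 gene of the 40 tested in the 3 lists with an unadjusted p under 0.05 in their comparison, a share of 2.5% against 7.2% and 5.96% of all probes.

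No marker gene of the blood cells was called either, and of the 48 tested, an unadjusted limma p was under 0.05 for 1 in 0 vs. ctrl (11.7% of all probes), for 0 in 6 months vs. ctrl (7.2% of all probes) and for 1 in 0 vs. 6 months (5.96% of all probes). They were *PPBP* of the platelet list (-0.65 ± 0.31 in 0 vs. ctrl, adjusted p = 0.422) and *CD2* of the T cell list (0.48 ± 0.20 in 0 vs. 6 months, adjusted p = 0.685). Of the 10 tested T cell markers, 8 had the higher mean before ASIT and 2, *CD4* (-0.23 ± 0.26) and *CD28* (-0.41 ± 0.47), the lower, with a median difference of 0.28 against -0.01 over all probes. All of these T cell markers, such as *CD3E* and *LCK*, were well above background on all 22 arrays, so T cell RNA was present throughout. Their mean log2 ratio ran from -0.54 to 0.20 in ctrl (median -0.07), from -0.56 to 0.46 before (median 0.07) and from -0.48 to 0.07 after ASIT (median -0.31). The mean of 6 monocyte markers ran from -0.52 to 0.36, from -1.12 to 0.44 and from -0.81 to 0.75, with medians of -0.09, -0.26 and -0.01. That of 4 erythroid markers was the widest of the marker lists, from -1.74 to 1.31 (median -0.44) in ctrl, from -1.48 to 1.34 (median 0.65) before and from -0.67 to 1.51 (median 0.90) after ASIT. The mean of 4 platelet markers had medians of 0.21, -0.41 and 0.02. The part of these shifts in the differences from ctrl was not tested. Against the T cell mean, over 15 dogs with group means removed, *CCR6* had the highest of 7 receptor correlations (r = 0.599, permutation p = 0.0168, adjusted 0.0749, rho = 0.564, permutation p = 0.0314, adjusted 0.22), followed by *CCR7* (r = 0.579, permutation p = 0.0214, adjusted 0.0749, rho = 0.421, permutation p = 0.118, adjusted 0.413). Without the 2 farthest dogs these r were 0.401 and 0.307, and with slide means removed 0.544 and 0.525. *CCR4* (r = 0.182), *CXCR3* (0.222) and *CCR10* (0.078), the other T cell receptors, were below them, and the difference between these correlations was not tested.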

How the data were processed

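The authors hybridized each dog's Cy5-labeled RNA with a Cy3-labeled common reference, without dye swaps. They deposited, per array, background-subtracted and Lowess-normalized intensity values, flags as other columns, and the log10 ratio of Cy5 to Cy3 from Agilent Feature Extraction, version 10.7.3.1 in the processing notes and methods and 10.10.1.1 in the file headers. A deposited series matrix holds the same log10 ratios for the 14 cAD arrays but other values for ctrl. The authors' filter, per the methods, was on flags and the coefficient of variation.

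Here the ratios were turned to log2, 208 outlier spots and all control spots were left out, and probes whose Cy5 was flagged well above background on 7 or more arrays were tested with limma 3.58.1 (R 4.3.3, with version 1.17.8 of the data.table package) in 1 fit of 3 groups. Figures used Python 3.11.15 and matplotlib 3.10.9. The number of arrays limits the precision. On simulated data, 192 of 200 probes changed by 2 on the log2 scale were recovered in 0 vs. ctrl. The largest difference of a member gene in that comparison was smaller, -1.57 for *CCL17*. Recovery of smaller changes was not tested, so this share does not apply to the differences of the member genes. Correlation tests drew 100000 permutations.

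The members and lists were chosen with earlier results of these data known. Named genes are the 9 members, the gene of the pathway lists with the lowest p in each comparison, and the 3 genes most like each member above background on all arrays. *CCL28*, *CCL14*, *CCL27*, *VCAM1*, *PPBP*, *CD2*, *CD4*, *CD28*, *CD3E* and *LCK* were named after their values were seen. Source name and health condition tie both arrays of each patient to 1 dog, while all titles after ASIT repeat patient 1 and number the arrays. Deviations of paired arrays correlated at r = -0.0356 (dog 6) to 0.555 (dog 2) over 38286 probes. Before ASIT 3 of 7 dogs, dogs 3, 5 and 6, correlated best with another dog's array. Alternatives were normexp (offset 50) with loess, the series matrix, the ratio of processed signals, Cy5 alone, other filters, the methods' test, slide, scan day or dog as a block, dogs 1 to 3 alone and each array left out.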

Additional observations from a re-analysis of the deposited data

Results flagged for a closer look

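In 4 of 27 groups of values (9 genes in 3 groups of dogs), the dog at the end of the range stood apart from the nearest other dog by more than Dixon's 95% limit. Chance flags about 1 in 20 such groups. Ctrl dog 5 was the highest healthy dog for *CCL22* at 0.46, with the next at 0.23, and for *CCR10* at 0.45, with the next at 0.05. Ctrl dog 2 was the highest healthy dog for *CCR2* at 0.44, with the next at 0.05. After ASIT, dog 4 was the lowest for *CXCR3* at -1.41, with the next at 0.60, and the median of the 790 probes that follow *CXCR3* was -1 on that array.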

How the results depend on the processing

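No alternative other than the Cy5 channel alone called any of the 9 genes. That one, which leaves the common reference out, called 5 of 9 genes in 0 vs. ctrl, among 3994 of all 38286 probes. In 6 months vs. ctrl it called 1 of 9, among 1452 of 38286. By the ratios as measured, 16 and 0 of all probes were called. The 5 were *CCL22* (-0.70), *CCR4* (0.30), *CCR10* (-0.48), *CCR6* (0.25) and *CCR7* (0.50), and the 1 was *CCR4* (0.36). It also turned the direction of *CCR2* (0.08) and *CXCR3* (-0.03) in 0 vs. ctrl, of *CCR10* (-0.38) and *CCR7* (0.27) in 6 months vs. ctrl, and of *CCR4* (-0.07) and *CCR2* (0.03) in 0 vs. 6 months. Normexp with loess turned *CCR4* in 0 vs. ctrl (-0.01), *CCR4* (-0.03) and *CCR6* (-0.03) in 6 months vs. ctrl and *CCL22* in 0 vs. 6 months (0.03), and dogs 1 to 3 alone, whose paired arrays share slides, turned *CXCR3* in 0 vs. 6 months (0.12). In these dogs *CCL17* was -1.56 and *CCR4* 0.22 in 0 vs. 6 months, against -0.79 and 0.04 in all 7 dogs. The cause was not tested. With arrays left out in turn, 0 of 9 genes were called throughout, while the calls over all probes ranged from 0 to 440 in 0 vs. ctrl, 0 to 2 in 6 months vs. ctrl and 0 to 103 in 0 vs. 6 months. In these, *CCR2* in 0 vs. ctrl ranged from -0.43 to 0.02 (without dog 2 before ASIT), *CCR7* in 0 vs. ctrl from -0.13 (without dog 6 before ASIT) to 0.48, *CCR2* in 6 months vs. ctrl from -0.05 (without dog 4 after ASIT) to 0.32, *CCR4* in 0 vs. 6 months from -0.06 to 0.15 and *CCR1* in 0 vs. 6 months from -0.20 to 0.06. *CCL17* in 0 vs. ctrl ranged from -1.97 to -1.25, *CCL22* from -0.37 to -0.26, *CXCR3* from 0.37 (without dog 7 before ASIT) to 0.88 (without dog 5 before ASIT) and *CCR4* from 0.13 to 0.33 (without the same dogs). In 6 months vs. ctrl *CCR4* ranged from 0.08 (without dog 6) to 0.27 (without dog 1) and *CCR7* from -0.42 (without dog 7) to -0.08 (without dog 2), and in 0 vs. 6 months *CCR7* ranged from 0.14 to 0.75, *CXCR3* from -0.71 to -0.06, *CCR2* from -0.62 to -0.18 and *CCL17* from -1.19 to -0.46. In the same comparison *CCR10* ranged from -0.24 to -0.11, *CCL22* from -0.15 to -0.04 and *CCR6* from -0.21 to 0.13. Leaving out 1 array, *CCR6* ranged from 0.43 (without dog 6) to 0.75 in 0 vs. ctrl and *CCL17* from -0.97 to -0.61 and *CXCR3* from 0.77 to 1.28 in 6 months vs. ctrl. With slide as a fixed block, *CXCR3* in 0 vs. 6 months was -0.14, *CCR1* -0.31, *CCR6* 0.29, *CCL22* -0.23 and *CCR4* 0.15. In the same setting *CCL17* was -0.78, *CCR10* -0.12, *CCR2* -0.68 and *CCR7* 0.29. With the dog as a block, which pairs the arrays of each patient, 0 of 9 genes were called in 0 vs. 6 months (*CCL17* -0.79, adjusted p = 0.82, *CCR7* 0.41, adjusted p = 0.809), and the block changed no call. By the methods' test, the adjusted p of the 9 genes over the 3 groups was 0.309 or more. That test called 0 of all 38286 probes in each comparison, so it does not set the 9 genes apart from the rest. The paper reports differentially expressed transcripts by such a test, and why it called no probe here was not tested. The strict filter on both channels tests 4 of the 9 genes and that on the coefficient of variation 8. Means over several probes of a gene gave no other value for the 9 genes, since each of them has 1 probe. Signal near background limits *CCL17*, *CCR2*, *CCR6* and *CCR7* most.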
